A study of Mus musculus with 9 samples.

Results

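The small heat shock proteins of muscle were followed in tumours and skeletal muscle of mice. Probe sets annotated to 1 gene symbol were taken, and 6 of the 7 genes on the list had at least 1: Hspb1, Hspb2, Hspb3, Hspb6, Hspb7 and Hspb8. They were represented by 10 probe sets, and they were 6 of 14440 genes with a probe set of their own and of 10646 genes tested. Cryab was not analysed here. The 5 tumours came from mice labelled MYF-5 CRE/SSM2 and are described as SYT-SSX tumours, after the fusion oncoprotein of synovial sarcoma. The Myf5 gene, which drives Cre in these mice, is active in muscle precursors. The tumours numbered 1 to 3 here are labelled CC23, CC17-B and CC17-A, and those numbered 4 and 5 are SSM5 and SSM4. The reference tissue was wild-type skeletal muscle from hind limb (muscle 1), the intercostal site (muscle 2), forelimb (muscle 3) and hind limb again (muscle 4). Genotype and tissue therefore differ together, and age, sex and strain are not given in the sources used here. The tumour labels give these names after the word mouse, but the muscle labels name no individual animal. CC17-A and CC17-B share a name, and whether they came from 1 mouse is not stated. Every p-value therefore rests on a spread between samples that may in part be technical.

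Small heat shock proteins are chaperones that need no ATP. They share an alpha-crystallin domain, assemble into oligomers, and hold unfolding proteins until ATP-dependent chaperones refold them or the cell degrades them. Striated muscle makes an unusually broad set of them, and they associate there with actin filaments, Z-discs and intermediate filaments. Hspb1 is also made in many other cell types, where stress and the factor Hsf1 induce it.

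Promoter sequence was available from RefSeq (GRCm38.p6) for 5 of the 6 genes, from 250 bases before the start of transcription. The windows of Hspb1 and Hspb6 are shown because these genes changed least and most in the tumours, and that of Hspb3 because it holds the single MEF2 site found. Capitals mark heat shock elements (GAANNTTC or TTCNNGAA), TATA boxes (TATAAA), CArG boxes and MEF2 sites, searched on both strands, and in Hspb3 the TATA box lies inside the MEF2 site. The Hspb1 window is chr5:135887669-135887918 on the + strand, the Hspb3 window chr13:113663677-113663926 on the - strand, and the Hspb6 window, the second of the starts listed for that gene, chr7:30553051-30553300 on the + strand.
Hspb1: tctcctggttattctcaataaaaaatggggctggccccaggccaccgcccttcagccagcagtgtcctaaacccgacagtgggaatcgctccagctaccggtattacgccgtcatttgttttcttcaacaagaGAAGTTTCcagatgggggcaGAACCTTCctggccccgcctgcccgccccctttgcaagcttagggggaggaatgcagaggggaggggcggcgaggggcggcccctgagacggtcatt
Hspb3: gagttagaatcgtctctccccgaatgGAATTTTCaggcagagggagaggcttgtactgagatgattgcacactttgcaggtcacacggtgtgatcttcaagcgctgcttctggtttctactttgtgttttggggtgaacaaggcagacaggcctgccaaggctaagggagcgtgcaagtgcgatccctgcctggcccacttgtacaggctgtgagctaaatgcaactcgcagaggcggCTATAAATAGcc
Hspb6: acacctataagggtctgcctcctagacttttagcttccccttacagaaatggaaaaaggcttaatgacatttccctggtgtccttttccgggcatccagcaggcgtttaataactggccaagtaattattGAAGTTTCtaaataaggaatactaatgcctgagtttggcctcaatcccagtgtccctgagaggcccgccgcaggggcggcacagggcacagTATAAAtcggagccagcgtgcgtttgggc
A GAANNTTC element was present in 3 of the 5 genes, Hspb1, Hspb3 and Hspb6, and in 6.69% of all 32851 promoter windows of this length. Hspb1 held a pair of them, beginning 117 and 97 bases before the start. TTCNNGAA was found in 7.17% of all windows, a CArG box in 1.47%, a MEF2 site in 2.92% and a TATA box in 12.4%. The windows of Hspb7 and Hspb8 held none of the marked motifs, and neither did the first Hspb6 window. A match describes the letters of the window and is no evidence of binding.

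The deposited values were intensities, which were scaled to a common trimmed mean. The floor of an array, the 40th percentile of its values, stood between 96.5 and 137 in scaled intensity. Of 18 skeletal muscle markers 15 were in the table, and their summed intensity ran from 851 to 154750 in tumours and from 575007 to 833384 in muscle. None of these 15 was below the floor on every array, but 14 were in tumour 4. Limma called 14 of the 15 lower, with a median log2 fold change of -5.73, a size limited by those values. Markers of smooth muscle, a tissue that also makes Hspb1 and Hspb6, summed to between 3068 and 5583 in tumours and between 7458 and 8700 in muscle, with 4 of 5 tested called lower. Acta2, smooth muscle actin (-0.93, adjusted p = 0.0143 by limma), lost its call with quantile normalization (adjusted p = 0.055), proteasome centring (0.518) and averaged probe sets (0.135). Mylk, a myosin kinase of smooth muscle, lost its call with proteasome centring (adjusted p = 0.51), without muscle 1 (0.0805) and without muscle 3 (0.0747). The proteasome genes were themselves lower in tumours, with a median log2 fold change of -0.63, so centring on them raises every gene. Of endothelial markers 2 of 6 were called lower, of Schwann cell markers 2 of 4 lower, and of macrophage markers 1 of 3 higher. Of all genes tested, 18.0% were called lower and 30.1% higher. The part of these cells in the results was not tested. In bulk tissue fewer muscle cells and less RNA per muscle cell cannot be told apart.

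All 6 genes were lower in tumours than in muscle. Limma called 6 of 6 lower and 0 higher at an adjusted p under 0.05 over all genes tested, where 18.0% of all 10646 genes were called lower and 30.1% higher. At an unadjusted p under 0.05 the counts were also 6 and 0, with 55.1% of all genes past it in one direction or the other. The groups did not overlap for 5 of the 6, against 15.2% of all genes with every tumour below every muscle array. The sizes differed widely, with log2 fold changes from -0.90 for Hspb1 to -5.38 for Hspb6. Their median was -3.86, beside 0.23 for all genes tested.

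**Figure D1:**
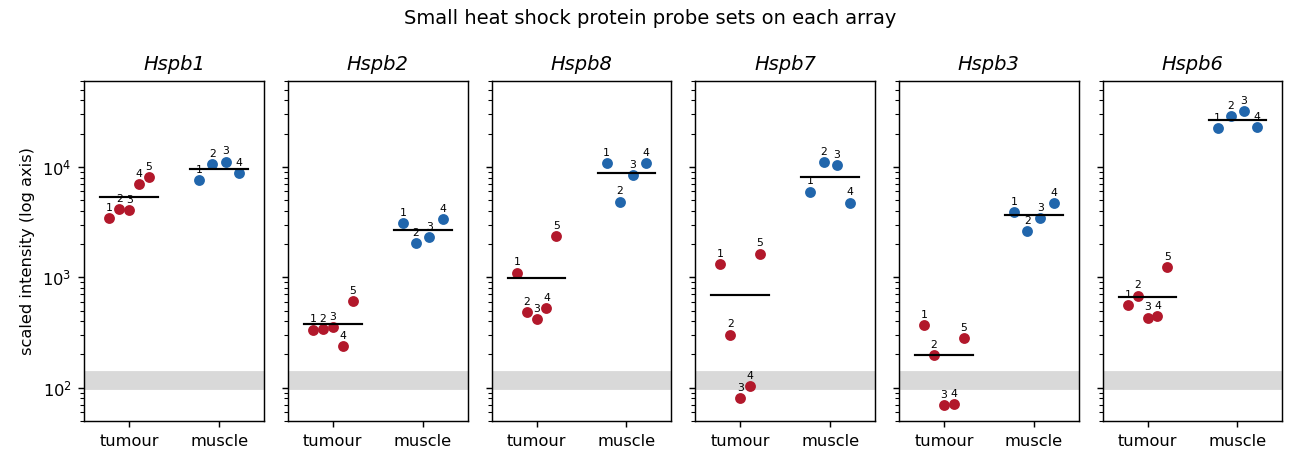
Scaled intensity on a log axis of the probe set representing each gene, with tumours left (red, numbered 1 to 5) and muscle right (blue, numbered 1 to 4). Black bars are group means and the grey band spans the floors of the arrays; only for Hspb1 do the groups overlap, and Hspb3 and Hspb7 reach the floor in some tumours.

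Hspb6, a protein known for its phosphorylation by protein kinase A in relaxing smooth muscle, had the most negative log2 fold change of the 6 genes. Its scaled intensity (1436332_at) was 562, 683, 431, 443 and 1229 in tumours 1 to 5, against 22529.6, 29063, 32085 and 23035 in muscles 1 to 4. Every tumour was far below every muscle, and every tumour was above its floor. Tumours averaged 670 ± 329 (SD, n = 5), against 26678 ± 4669 (SD, n = 4) in muscle. The limma log2 fold change was -5.38 (SE 0.30, 95% interval -6.03 to -4.73, adjusted p = 2.24e-06), or 41.5-fold lower. It was the 51st most negative of the 10646 log2 fold changes.

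Hspb2 and Hspb3 encode partners that form a complex in muscle, and Hspb2 is also known as a binder of the myotonic dystrophy kinase Dmpk. Hspb2 (1429888_a_at) stood at 336, 339, 355, 238 and 611 in tumours 1 to 5, against 3079, 2038, 2311 and 3358 in muscles 1 to 4. Tumours 1 to 3 were nearly level and tumour 5 was the highest. On the log2 scale Hspb2 fell by 2.83 (limma, 95% interval -3.42 to -2.24, adjusted p = 2e-05), or 7.10-fold. Hspb3 (1449872_at) stood at 368, 196, 70.0, 70.9 and 283 in tumours 1 to 5, against 3871, 2609, 3462 and 4709 in muscles 1 to 4. Tumours 3 and 4 were below their floors, so the size of its fall is limited by background there. The fitted change of Hspb3 was -4.33 on the log2 scale (limma, SE 0.45, 95% interval -5.32 to -3.34, adjusted p = 3.27e-05).

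The ratio of these partners was higher in every tumour than in every muscle sample. On the log2 scale, Hspb2 over Hspb3 on the same array lay between -0.13 and 2.11 in tumours and between -0.58 and -0.33 in muscle, so the groups did not overlap. The difference in mean ratio was 1.51 (two-sided exact permutation test over 126 splits, p = 0.0159, the smallest this design allows, and adjusted p = 0.0317 over 2 ratios). The adjustment was planned to cover 2 further ratios, those with Cryab, which were not run. Over the planned number this ratio could pass 0.05 only if another ratio also passed. Because Hspb3 was below the floor in tumours 3 and 4, its values there were also set to the floor, a choice made after seeing the data. The tumour ratios then reached 1.32 and the difference was 1.27, so that Hspb2 fell at least 2.42-fold less than Hspb3 (exact p = 0.0159, adjusted p = 0.0317). With the tumours of the CC17 pair averaged into 1 sample the difference was 1.42 (exact adjusted p = 0.0571). With 4 samples against 4, it can pass 0.05 after adjustment only if the ratio of Hspb8 over Bag3 also passes. That ratio had an exact adjusted p of 0.171 there.

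Hspb7, which in mouse heart binds filamin C and is needed for ordered thin filaments, varied widely among tumours. Its intensity (1434927_at) was 1319, 303, 81.0, 103 and 1639 in tumours 1 to 5, against 5989, 11054, 10409 and 4758 in muscles 1 to 4. Tumours 1 and 5 were well above the rest, tumour 3 was below its floor, and the highest tumour was 15.8 times tumour 4, the lowest one above its floor. The log2 fold change was -4.31 (SE 0.81, 95% interval -6.08 to -2.54, adjusted p = 0.00121 by limma). The tumour mean, 689 ± 735 (SD, n = 5), was 451 ± 587 (SD, n = 4) without tumour 5, with a log2 fold change of -4.84. A second Hspb7 probe set (1421289_at) was dimmer, at 3.59 to 121 in tumours and 289 to 2064 in muscle. It was below the floor in 4 tumours, and its log2 fold change was -4.08 (adjusted p = 0.000638) when each probe set was fitted by limma on its own.

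Hspb8 pairs with the co-chaperone Bag3 to send damaged filament proteins to autophagy. Its intensity (1417013_at) was 1105, 481, 416, 527 and 2348 in tumours 1 to 5, against 10882, 4852, 8435 and 10793 in muscles 1 to 4. Tumour 5 carried the tumour mean of 976 ± 815 (SD, n = 5), which was 632 ± 318 (SD, n = 4) without it. The log2 fold change was -3.40 (SE 0.48, 95% interval -4.45 to -2.35, adjusted p = 0.000199 by limma), and -3.79 without tumour 5. With its probe sets averaged it was -2.37 (adjusted p = 0.000196). The probe set 1417014_at gave -2.93 (adjusted p = 0.000159 by limma over probe sets). The dimmer 1456434_x_at, at 179 to 649 in tumours and 447 to 971 in muscle, overlapped between the groups and was not called (-0.77, adjusted p = 0.107 by limma). The suffix _x marks probes that may also bind other transcripts. The second Hspb1 probe set and those representing Flnc, Tpm2, Unc45a and Vim, all described below, carry it too.

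Bag3 itself (1422452_at) was at 446, 387, 381, 1015 and 958 in tumours 1 to 5, against 3375, 2189, 3932 and 3058 in muscles 1 to 4. It was lower in every tumour than in every muscle, and limma put its change at -2.38 on the log2 scale (SE 0.34, adjusted p = 0.00022). The log2 ratio of Hspb8 over Bag3 ran from -0.92 to 1.28 in tumours and from 1.10 to 1.81 in muscle. The difference of -1.02 missed the threshold (two-sided exact permutation test, p = 0.0952, adjusted p = 0.0952). It was 0.0093 with all probe sets of Hspb8 averaged, so these arrays do not settle whether the partners fell by different amounts.

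Hspb1, an actin-associated chaperone found well beyond muscle, had the smallest change. Its intensity (1422943_a_at) was 3450.3, 4122, 4094, 7017 and 8067 in tumours 1 to 5, against 7586, 10648, 11170.1 and 8745 in muscles 1 to 4. Tumour 5 was above muscle 1, so the groups overlapped. The log2 fold change was -0.90 (SE 0.28, 95% interval -1.51 to -0.29, adjusted p = 0.0202 by limma), or 1.86-fold lower. The call ended without muscle 3 (-0.82, adjusted p = 0.0628), with quantile normalization (-0.45, adjusted p = 0.285) and with arrays centred on proteasome genes (-0.16, adjusted p = 0.671), and over all alternatives its adjusted p ran from 0.00618 to 0.671. Centring on proteasome genes moved the median of all genes to 0.97. Of the 28 proteasome genes tested, 14 were called lower and 0 higher, where 18.0% of all genes were called lower. Their median was -0.63, so centring on them raises the log2 fold change of every gene. Relative to the median of all genes, which cancels any shift of a whole array, Hspb1 was at -1.13 in the main scaling and -0.54 after quantile normalization. A second probe set (1425964_x_at) stood at 2554, 3416, 3304, 3229 and 4628 in tumours and 5543, 6537, 7834 and 6578 in muscle, with no overlap and a log2 fold change of -0.96 (adjusted p = 0.00315 by limma over probe sets). The probe sets differed on tumour 4, which was at 73.6% of the muscle mean by the first and 48.8% by the second. By the first, the tumours labelled SSM (4 and 5) lay above the 3 labelled CC, and by the second they did not separate. That split was not tested. Of the 10 probe sets of the family, fitted singly, 9 were called lower, against 16.5% of all probe sets tested.

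**Figure D2:**
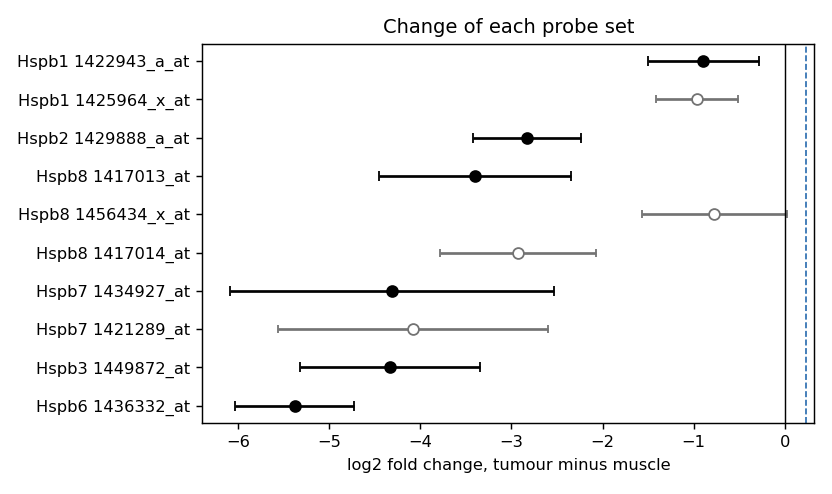
Log2 fold change, tumour minus muscle, of all 10 probe sets with 95% intervals; filled points represent the gene in the gene fit and open points are other probe sets, fitted on their own. The dashed blue line is the median of all genes at 0.23; Hspb1 and the probe set 1456434_x_at of Hspb8 lie nearest to 0.

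The sizes of the changes were compared by their intervals. The 95% interval of Hspb1 did not overlap that of any other member, while those of Hspb3, Hspb7 and Hspb8 overlapped one another. The interval of Hspb6 also overlapped those of Hspb3 and Hspb7, but not those of Hspb8 and Hspb2. No test was run on these differences.

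The tumours differed in how much muscle transcript they held, and the order of tumours by these markers was set beside the chaperone genes. With tumours taken in the order 4, 3, 2, 1 and 5, the median of the 15 muscle markers was 0.103%, 0.747%, 1.97%, 5.22% and 15.4% of their muscle means. Hspb7 was at 1.28%, 1.01%, 3.76%, 16.4% and 20.4% in the same order of tumours, with tumour 3 under its floor of 1.64% and tumour 4 just above its own. Hspb2 spanned less, at 8.84%, 13.2%, 12.6%, 12.4% and 22.7%. Hspb8 was at 6.03%, 4.76%, 5.51%, 12.6% and 26.9% by its representative probe set. By 1417014_at it was at 9.16%, 16.6%, 6.77%, 8.20% and 32.9%, so its order among tumours 1 to 4 rests on the probe set. Hspb6 stood at 1.66%, 1.62%, 2.56%, 2.11% and 4.61%, where the floor was at 0.362% to 0.515% of its muscle mean. In tumour 4 the probe sets of Hspb1, Hspb2, Hspb6 and Hspb8 were above the floor, and that of Hspb7 just above it, while 14 of 15 muscle markers were below. By its definition the floor leaves most probe sets of an array above it. Of the gene lists described below, 4 of 19 co-chaperones, 6 of 12 clients and 0 of 11 kinases were under it in tumour 4. In tumour 5, Hspb3 and Hspb6 at 7.73% and 4.61% lay under the 15.4% of the markers. Hspb3 read 1.94% in tumour 4 and 1.91% in tumour 3, both under floors of 2.63% and 3.61%. By the representative probe sets, tumour 5 was the highest tumour for 5 of the 6 genes. On these probe sets tumour 3 was the lowest for Hspb6 and Hspb8, and its values of Hspb3 and Hspb7 were below the floor. For Hspb8 the lowest was tumour 2 by 1417014_at and tumour 4 by 1456434_x_at, and the latter had tumour 1 highest. With 5 tumours no correlation was computed, and what part the remaining muscle had in these levels was not tested.

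**Figure D3:**
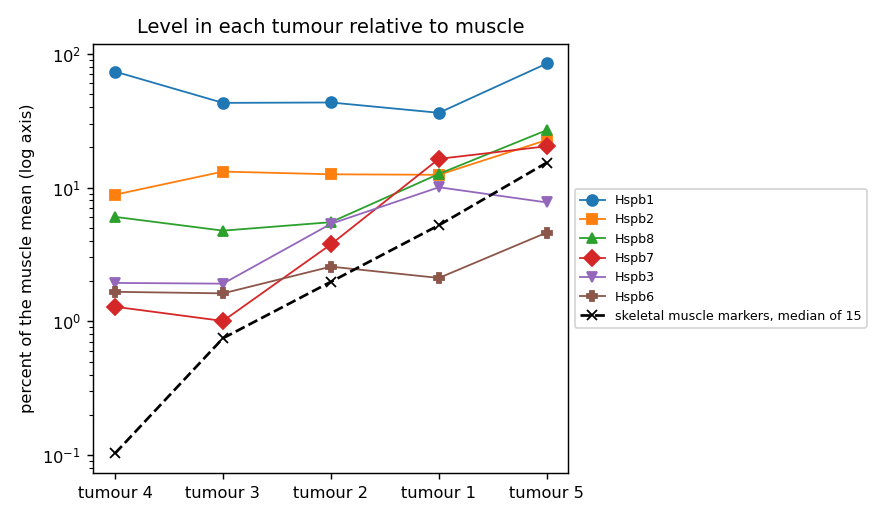
Level of each gene in each tumour as a percent of its muscle mean, on a log axis, with tumours ordered by their muscle markers. The dashed line, the median of 15 skeletal muscle markers, runs from 0.103% in tumour 4 to 15.4% in tumour 5, while Hspb2 stays between 8.84% and 22.7% and Hspb6 between 1.62% and 4.61%.

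Muscles also differed among themselves. The intercostal sample, muscle 2, had the lowest level of 3 of the 6 genes by their representative probe sets: Hspb2, Hspb3 and Hspb8. For Hspb8 this rests on the representative probe set, at 4852 there and 8435 to 10882 in the other muscles. Both other Hspb8 probe sets put muscle 2 second highest, 1417014_at at 2019 and 1456434_x_at at 633. In contrast Hspb7 was highest in muscle 2, at 11054, and its second probe set read 2064 there against 289 to 743 elsewhere. The hind limb samples, muscles 1 and 4, were the lowest for Hspb6 and for both probe sets of Hspb7 and the highest for Hspb2 and Hspb3. For Hspb1 and Hspb8 the order of the muscles differed between probe sets. Muscle 2 also had the highest median of slow fibre markers, at 191% of the muscle mean against 50.3% to 87.3% in the other muscles. Its summed adipocyte markers were the highest too, at 127060. Of 8 slow fibre markers 7 were called lower in tumours, and Tpm3 higher by the probe set used. Among all genes tested 18.0% were lower and 30.1% higher. Tnni1 and Casq2 overlapped between tumours and muscle. The calls of Casq2 and Atp2a2 ended under some alternatives (adjusted p up to 0.168 and 0.186 by limma). With 1 intercostal and 1 forelimb array no test was made between sites, and the part of fibre type was not tested.

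Relatives of the family other than Hspb11 gave little signal. Cryaa, the lens alpha-crystallin, was below the floor on all 9 arrays, at 13.1 to 49.6 in tumours and 14.0 to 84.7 in muscle. Hspb9 and Odf1, genes known from testis, were below it on all arrays too. Hspb11, which carries the family's name but is known as a protein of intraflagellar transport, was higher in tumours (0.83, adjusted p = 0.00514 by limma). It lost its call without scaling (adjusted p = 0.0536) and under centring each array on its median (adjusted p = 0.0534). Of the heat shock factors, Hsf1 was not analysed here, and limma called neither Hsf2 (-0.21, adjusted p = 0.706) nor Hsf4 (-1.06, adjusted p = 0.0733, and 0.0442 to 0.579 over the alternatives).

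Co-chaperones and proteins of chaperone-assisted autophagy were mixed, with 12 of 19 tested genes called lower, 3 higher and 4 not called. Their median log2 fold change was -0.90. Among all genes tested 18.0% were called lower and 30.1% higher. The muscle-specific myosin chaperone Unc45b fell by 5.22 on the log2 scale (adjusted p = 9.34e-05 by limma), against a muscle mean of 5705, while its general counterpart Unc45a rose by 1.44 (adjusted p = 0.00163). The call of Unc45a ended with only plain _at probe sets, at 0.46 (adjusted p = 0.149). Smyd1, a methyltransferase that works with Unc45b in myosin assembly, and Trim63, a muscle ubiquitin ligase, were also called lower (adjusted p = 0.000309 and 0.00026). Unc45b and Trim63 were below the floor in tumours 3 and 4 and Smyd1 in tumours 2, 3 and 4, so the sizes of their falls are limited by background. Bag4, another member of the Bag family, rose by 1.12, and Bag5 by 0.54. The call of Bag4 ended with its probe sets averaged (adjusted p = 0.0701), and that of Bag5 under 11 alternatives, among them the unscaled values (adjusted p = 0.23).

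Client proteins of small heat shock proteins were largely filament proteins. Of 12 tested, 10 were called lower, against 18.0% of all genes, with a median of -3.98. The lists share genes: Acta1, Ttn and Tnni2 were also among the skeletal muscle markers, and Flnc among the co-chaperones. Dmpk, the kinase that Hspb2 binds, was at 664, 222, 301, 333 and 753 in tumours 1 to 5, against 1945, 1526, 1859 and 2254 in muscles 1 to 4, so that no tumour reached a muscle (-2.16 on the log2 scale, adjusted p = 0.000418 by limma). With the probe sets of Dmpk averaged its change was -1.18 (adjusted p = 0.00309). Flnc, filamin C, fell by 1.59, and the sarcomere genes Tnni2, Actc1 and Tpm2 changed by -5.87, -5.19 and -4.75. Tnni2 and Actc1 were below the floor in tumour 4, and Tpm2 was at -3.38 with its probe sets averaged. Actc1 stood at 1820 in muscle 2 against 25036 to 29491 in the other muscles, and its change was -6.17 without muscle 2. The 2 not called were Des and Vim, the muscle and mesenchymal intermediate filament proteins. Des had a log2 fold change of -0.89 (adjusted p = 0.0888), at a mean of only 208 in muscle, near the floor, and was called under 6 alternatives. It was below the floor in tumours 1, 2, 4 and 5, so the size of its change is limited by background. Vim had one of 0.04 (adjusted p = 0.932), with a sign that changed under other scalings.

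Kinases that act on the family were called in both directions. Of 11 tested, 6 were lower, 4 higher and 1 not called, where 18.0% of all genes were lower and 30.1% higher. Mapkapk2 and Mapkapk3, which phosphorylate Hspb1, fell by 1.54 and 2.75 on the log2 scale (adjusted p = 0.000666 and 2.4e-05 by limma), and Mapk12, the p38 isoform of muscle, fell by 2.44. With plain _at probe sets alone Mapkapk3 was at -1.75. Mapk13 and Mapk11, other p38 isoforms, were below the floor on all muscle arrays and at least 2.41-fold and 2.25-fold higher in tumours by group means. Mapk13 was also below the floor in tumour 2, at 43.8 against 102. Prkd1, protein kinase D, rose by 1.42.

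ATP-dependent chaperones, listed together with co-chaperones such as the Dnaj proteins, were called in both directions. Of 38 genes 12 were lower, 10 higher and 16 not called, where 18.0% of all genes were lower and 30.1% higher. Their median of 0.08 lay near the 0.23 of all genes. Dnajb1 and Dnaja1, co-chaperones of the Hsp70 proteins, rose by 1.68 and 1.41, and Hsp90aa1, the inducible cytosolic Hsp90, by 1.41. The call of Hsp90aa1 ended with its probe sets averaged (0.68, adjusted p = 0.105). Dnajb5, Hspa1l and Dnaja4 were the lowest called members. Dnajb5 and Hspa1l were below the floor in all tumours and at least 5.01-fold and 2.84-fold lower there, and Dnaja4 fell by 2.25, or 1.66 with its probe sets averaged.

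**Figure D4:**
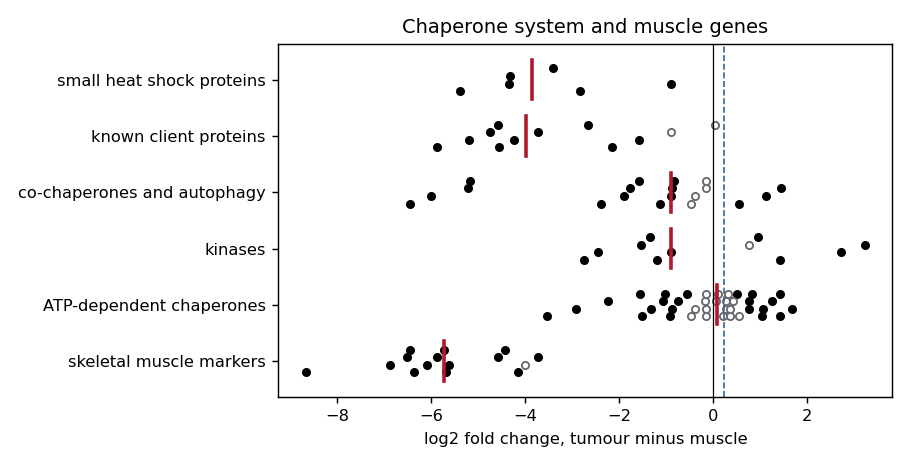
Log2 fold change, tumour minus muscle, of the tested genes in each group; filled points were called by limma and open points were not, red bars are medians and the dashed line is the median of all genes. The small heat shock proteins centre on -3.86 and the group labelled ATP-dependent chaperones, which also holds co-chaperones, on 0.08. Some genes belong to several groups.

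Patterns over the 9 arrays were compared by the root mean square difference of log2 levels, each set relative to the muscle mean of its gene, outside the family. Nearest to Hspb3 were Ddit4l (0.23) and Jph2 (0.33), a junction protein of the muscle triad. Nearest to Hspb6 were Nmrk2 (0.48), a muscle enzyme of NAD synthesis, and Jph1 (0.55), and to Hspb7 Lmod3 (0.44), an actin nucleator of thin filaments, and Tpm2 (0.47). Nearest to Hspb8 were Speg (0.28), a striated muscle kinase, and Retreg1 (0.32). Hspb2 lay nearest to Mettl22 (0.22) and Cdc34 (0.25), and Hspb1 to Derl1 (0.19) and Mrpl9 (0.19), genes used in most cells. Within the family, Hspb2 and Hspb8 were the closest pair (0.67) and Hspb1 and Hspb6 the farthest (3.36). These distances are descriptions and carry no test.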

How the data were processed

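RNA of 5 tumours and 4 skeletal muscle samples was measured on 1 Affymetrix array each. The deposited values are linear probe set intensity, produced by the authors with MAS5 per the submitters' processing notes; version, scaling target and detection calls are not given in the sources used here. The table held covered 30508 probe sets. Arrays differed by over 10% in their 2% trimmed mean and were scaled to a common one. Controls (7) and probe sets with several symbols (496) or none (4424) were left out. The probe set with the highest mean represented a gene, and genes reaching the floor (40th percentile) on at least 4 arrays were tested on log2(value + 16) with limma 3.58.1 in R 4.3.3 (lmFit, eBayes with trend, two-sided, Benjamini-Hochberg). An "at least" fold sets the group with signal against the floor. Fold changes understate the change of dim genes, and precision is limited by having 9 arrays. Ratios of partner genes were tested with exact permutation (scipy 1.17.1). The Cryab ratios planned with Hspb2 and Hspb1 were not run, so p-values were adjusted over 2 ratios and not over all those planned. Genes outside the family were named by rule: per list, up to 3 called members with the largest change in each direction, a few fixed genes, and the 2 nearest patterns per member. Bag5, Hspb11 and Tpm3 come from that rule, while Hsf2 and Hsf4 were named after their values were seen. Members, lists and tests were chosen with earlier results of these data known. The procedure was tested on simulated data.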

Additional observations from a re-analysis of the deposited data

How the results depend on the processing

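No paired analysis was possible because the replicate numbers only name arrays and pair none. The count of members called lower stayed at 6 or was 5, without Hspb1, under quantile normalization, with arrays centred on proteasome genes and without muscle 3. Hspb2, Hspb3, Hspb6, Hspb7 and Hspb8 were called lower under each alternative of the gene fit, including the removal of tumour 5 and muscle 2 together, which was chosen after seeing the data, as were the fits of single probe sets. Of those fits, 1 for Hspb8 was not called. The ratio of Hspb2 over Hspb3 lost its call with the CC17 pair averaged (1.42) and with any array left out (1.24 to 1.80). With so few splits left it can pass only if the ratio of Hspb8 over Bag3 also passes, which it did not. That of Hspb8 over Bag3 turned to 0.0093 with all probe sets averaged, and ran from -1.24 to -0.69 with single arrays left out. Tpm3, the exception among the slow fibre markers at 1.84, was at -1.67 with all probe sets averaged and -4.56 with plain _at probe sets, so its direction rests on the probe set. Vim was at -0.097 as deposited, -0.15 with arrays centred on their median, -0.080 with array weights and -0.17 to 0.21 with single arrays left out, but was called higher with quantile normalization (0.76) and proteasome centring (0.78). The proteasome genes were themselves lower in tumours, with a median of -0.63. The cause of the changes of Vim between settings was not tested. A fit with the CC17 pair as a random block was not run, since 1 shared pair gave limma no estimate. Genes near the floor in tumours, Hspb3 and Hspb7, have fold changes limited by background.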
